A study of Mus musculus with 24 samples.

Results

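Mucin genes and the genes of mucus-making cells were followed in the epithelial fraction of mouse lung organoids grown with nylon fibers. The set was fixed by gene name, with earlier results of these data known, and holds 7 of the 14557 gene symbols with counts. It holds 2 secreted gel-forming mucins (Muc5ac and Muc5b), 3 membrane-bound mucins (Muc1, Muc4 and Muc16) and 2 goblet cell factors (Agr2 and Spdef). For each gene the transcript whose mean was highest across the 12 epithelial libraries was used, and all 7 passed the filter on low counts. Muc5b and Agr2 passed it through their control libraries. With only the 12000-fiber and 30000-fiber groups fitted, Muc5b, Agr2 and Spdef were filtered out. The organoids were built from 200000 EpCAM+ lung cells of female wild-type C57BL6 mice and 200000 CCL206 fibroblasts, a mouse lung fibroblast line, per well. Wells held 12000 or 30000 nylon 6,6 fibers of 12 by 31 µm mixed into the gel, or no fibers (control), for 7 days. Cells were then parted on anti-EpCAM beads, and the 12 epithelial libraries come from 4 mice, each with 1 library at 0, 12000 and 30000 fibers. All groups share the genotype and the fibroblast line, so the wells differ by label in the fibers alone.

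Mucus over the airway is a gel of very long, heavily glycosylated polymers. The gel-forming mucins Muc5ac and Muc5b are stored in granules of goblet and club cells and released, with Muc5b being the mucin that mouse airways need for clearance of particles. Membrane-bound mucins such as Muc1, Muc4 and Muc16 stay anchored to the apical surface and the cilia, where they form a brush under the gel. Agr2 is a protein disulfide isomerase of the endoplasmic reticulum that gel-forming mucins need for folding, and Spdef is an ETS transcription factor that drives goblet cell differentiation.

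Deposited counts summed to 21222034 or more in each control library (highest 28232472), to 20103389 or more at 12000 fibers (highest 31119155), but to 6767842 to 9234052 at 30000 fibers. The 30000-fiber libraries stood apart in 2 further measures. Mitochondrial genes took between 5.2 and 7.77% of the counts of control libraries, between 5.33 and 6.91% at 12000 fibers, and between 14.3 and 16.3% at 30000 fibers. An index of how far counts lie toward the 3′ transcripts of a gene, on a log2 scale with the control mean at 0, was computed over 10052 genes. It lay from -0.035 to 0.025 in control libraries, from -0.075 to -0.032 at 12000 fibers, and from 0.365 to 0.457 at 30000 fibers. The fraction carried its epithelial label, with Epcam at 650 ± 64.5 CPM (counts scaled to a common library total) in controls, 484 ± 14.9 at 12000 fibers and 239 ± 36.8 at 30000 fibers. Epcam did not stand for the whole list of 7 epithelial genes at 12000 fibers, where 3 were lower and 1 was higher. Their summed level there ranged over 4530 to 5200 CPM, which overlapped the control range of 4300 to 4920 CPM. With 30000 fibers 6 of the 7 were lower, and the sum lay below both other groups (2810 to 3250 CPM). Fibroblast markers were present too. The 11 listed fibroblast genes with counts had a sum between 449 and 1320 CPM in controls, between 1630 and 1930 at 12000 fibers, and between 2810 and 3770 at 30000 fibers, and 10 of 10 tested were higher at each fiber number. The part of these 4 measures (depth, mitochondrial share, 3′ shift and fibroblast genes) in the results was not tested, and every result at 30000 fibers rests on the 4 libraries that share them. In such bulk libraries, fewer mucous cells and less mucin RNA per cell cannot be told apart.

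The genes sit at 6 places in the genome. In the GENCODE annotation of build GRCm38 (mm10), Muc5ac (ENSMUSG00000037974, chromosome 7, 141788972 to 141819231, plus strand) and Muc5b (ENSMUSG00000066108, chromosome 7, 141839070 to 141873084, plus strand) are neighbors 19.8 kb apart. Muc1 (ENSMUSG00000042784) lies on chromosome 3 from 89229057 to 89233381, Muc4 (ENSMUSG00000079620) on chromosome 16 from 32735886 to 32782391, Agr2 (ENSMUSG00000020581) on chromosome 12 from 35992907 to 36004087, all on the plus strand. Muc16 (ENSMUSG00000109564) lies on chromosome 9 from 18495455 to 18674530 and Spdef (ENSMUSG00000024215) on chromosome 17 from 27714352 to 27728955, both on the minus strand. The transcripts used differ widely in length, with 25437 bases in 78 exons for Muc16, 14964 bases for Muc5b, 11277 for Muc4, 10752 for Muc5ac, 2242 for Muc1, 1921 for Spdef and 784 for Agr2.

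RefSeq promoter windows of build GRCm38.p6, 250 bases before to 50 after the start, were at hand for 5 of the 7 genes, not for Muc5ac or Muc5b. Those of Agr2, Muc4 and Muc1 are shown because these genes mark the lowest, an intermediate and the smallest fitted change. The windows, all on the plus strand, are chr12:35992675-35992974 for Agr2, chr16:32735636-32735935 for Muc4 and chr3:89228806-89229105 for Muc1. Capitals mark matches to the motifs searched.
Agr2: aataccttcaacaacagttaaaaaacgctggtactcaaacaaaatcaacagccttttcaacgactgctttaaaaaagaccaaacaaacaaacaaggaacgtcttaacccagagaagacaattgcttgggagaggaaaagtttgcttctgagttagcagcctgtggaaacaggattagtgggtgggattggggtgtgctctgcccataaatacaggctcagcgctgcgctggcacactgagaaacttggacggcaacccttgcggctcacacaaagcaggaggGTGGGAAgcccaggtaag
Muc4: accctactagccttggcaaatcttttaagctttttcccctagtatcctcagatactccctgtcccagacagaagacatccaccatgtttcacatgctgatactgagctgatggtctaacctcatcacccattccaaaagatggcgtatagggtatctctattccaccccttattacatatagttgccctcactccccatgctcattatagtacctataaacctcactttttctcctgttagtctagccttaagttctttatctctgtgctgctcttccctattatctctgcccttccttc
Muc1: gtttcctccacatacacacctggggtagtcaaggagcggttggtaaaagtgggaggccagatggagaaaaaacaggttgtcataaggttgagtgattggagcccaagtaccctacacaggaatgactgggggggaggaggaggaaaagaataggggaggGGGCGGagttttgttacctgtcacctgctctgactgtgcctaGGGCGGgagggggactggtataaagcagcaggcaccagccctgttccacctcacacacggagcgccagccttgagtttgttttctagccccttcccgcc
The letters searched on both strands were TNTTTAC (FOXA), CAAGTG (NKX2-1), CCGGAT (SPDEF), GTGGGAA (RBPJ) and GGGCGG (GC box), and no matched bases overlapped. Agr2 held 1 match, GTGGGAA at bases 283 to 289 of the window, which 6.38% of 32841 promoter windows of that length also hold. Muc1 held GGGCGG at bases 160 to 165 and 202 to 207, a motif found in 35.7% of windows. Spdef held 1 FOXA match on the minus strand at bases 204 to 210 (12.4% of windows), and Muc4 and Muc16 held none of these letters. NKX2-1 and SPDEF letters, present in 13.6% and 6.04% of windows, were in none of the 5. The GC content was 47.3% in the Agr2 window, 43.7% in that of Muc4 and 55.7% in that of Muc1.

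In untreated organoids Muc1 and Muc4 had the highest levels of the set. Per kilobase of transcript, the control level was 310 ± 15.8 CPM for Muc1, 102 ± 30.2 for Muc4, 18 ± 8.13 for Agr2, 4.13 ± 2.21 for Muc5b, 3.36 ± 0.72 for Muc16, 1.08 ± 0.303 for Muc5ac and 1.02 ± 0.123 for Spdef (SD, n = 4). Neighbors in that order lay beyond each other's spread from Muc1 through Agr2 to Muc5b, and from Muc16 to Muc5ac, while Muc5b and Muc16 did not, nor did Muc5ac and Spdef. At 12000 fibers the order ran Muc1 (269 CPM per kilobase), Muc4 (18.8), Muc16 (1.13), Spdef (0.715), Muc5ac (0.185), Agr2 (0.0858) and Muc5b (0.0426). The same order held at 30000 fibers, with Muc1 at 250, Muc4 at 33.2, Muc16 at 1.22, Spdef at 0.605, Muc5ac at 0.156, Agr2 at 0.125 and Muc5b at 0.0446 CPM per kilobase. Agr2 and Muc5b, next after Muc4 in controls, had the lowest means with fibers. The place of Agr2 rests on 3 reads and 1 read, and its spread overlapped those of Muc5b and Muc5ac, with 0.5 for Agr2 against 0.109 for Muc5ac in mouse 1 at 30000 fibers.

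The comparison of 12000 fibers with control asked whether fibers change the genes of the mucus-making epithelium. Of the 7 genes, 5 fell and none rose (edgeR quasi-likelihood test, Benjamini-Hochberg adjusted p under 0.05 over 13759 genes), where 38.0% of all genes tested were called, 18.7% higher and 19.3% lower. The same 5 genes did not overlap between groups in CPM, as did 18.7% of all genes in that direction (17.6% in the other). The median log2 change of the 7 was -2.44, against 0 over all genes tested. At 30000 fibers 6 of 7 fell and none rose, where 65.6% of all genes were called, 32.2% higher and 33.4% lower. The 6 did not overlap, as did 29.4% of all genes on the lower side (28.7% on the higher). The median of the 7 was -1.62 there, against -0.03 over all genes. The fiber groups share the 4 control libraries, so the comparisons with control are not independent of each other. Muc5b and Agr2, lower in both, passed the filter on low counts through their control libraries. With fiber values near the floor, they could enter the test only as lower. The members were chosen with earlier results of these data known, so their counts were not tested against the shares over all genes.

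**Figure D1:**
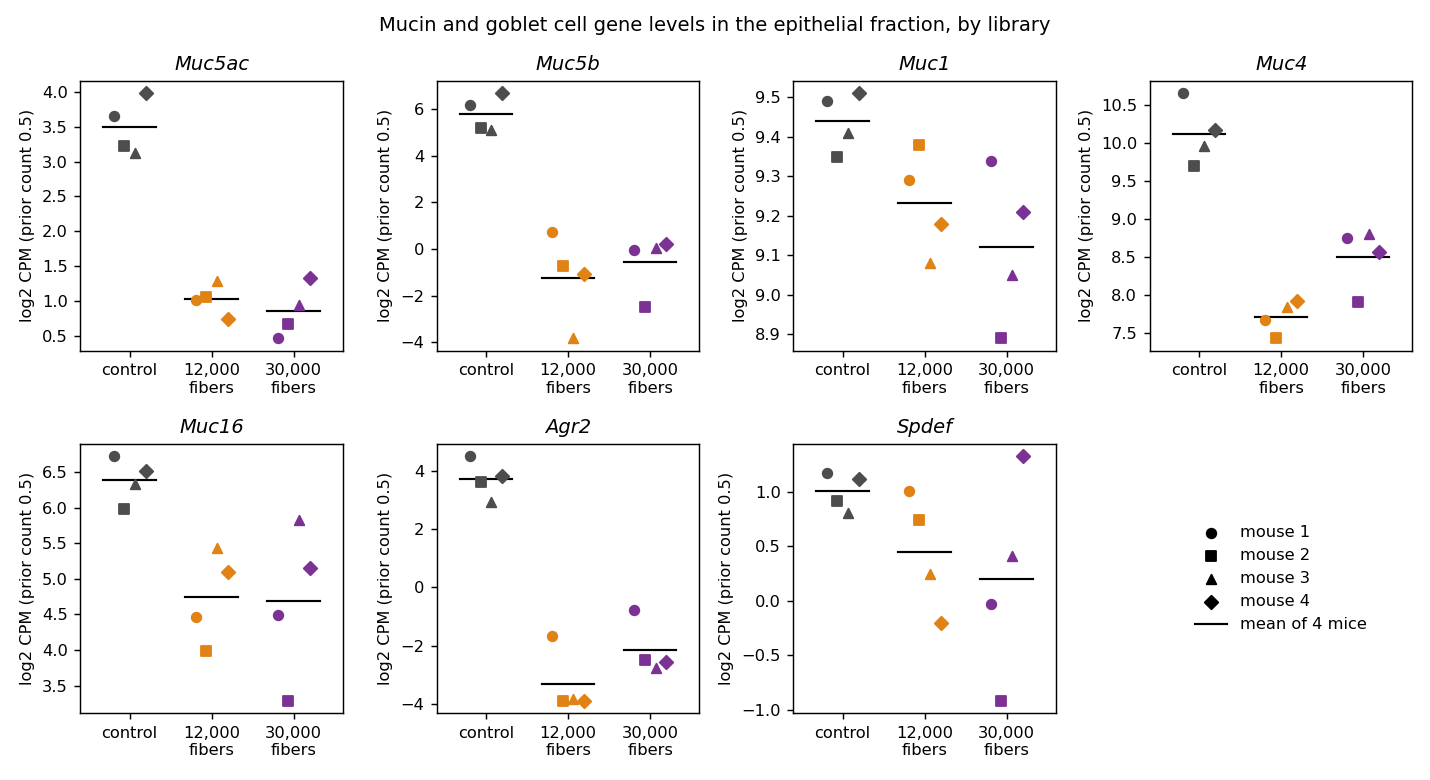
Level of each of the 7 genes as log2 CPM (vertical axis, prior count 0.5, a separate range in each panel) in control, 12000-fiber and 30000-fiber libraries of 4 mice (marker shape), with the group mean as a line. All fiber libraries lie below all control libraries for Muc5ac, Muc5b, Muc4, Muc16 and Agr2, while Spdef overlaps at both fiber numbers and Muc1 at 12000 fibers.

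Muc5b, the gel-forming mucin of club cells and submucosal glands, was near 0 with fibers. In mice 1 to 4 it had 73.2, 36.1, 34.5 and 104 CPM in control libraries, 1.61, 0.533, 0 and 0.402 CPM at 12000 fibers, and 0.784, 0, 0.883 and 1 CPM at 30000 fibers. Mice 1 and 4 had the highest controls, and even the lowest control lay far above each fiber library. The log2 change was -6.35 ± 0.64 at 12000 fibers (SE, edgeR adjusted p = 3.72e-05) and -6.47 ± 0.84 at 30000 fibers (adjusted p = 7.00e-05). In summed counts, 25 reads at 12000 fibers against 2291 in controls gave 1.2% of the control level (exact Poisson interval 0.772 to 1.77% at 95%, counting error only), and 8 reads at 30000 fibers gave 1.08% (0.466 to 2.13%). Without the 12000-fiber library of mouse 1, which held most of those reads, the log2 change at 12000 fibers was -7.53.

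Muc5ac, the gel-forming mucin of goblet cells that mouse airways raise in allergic inflammation, was scarce to begin with and fell less. It had 12.6, 9.34, 8.6 and 15.7 CPM in controls of mice 1 to 4, 1.97, 2, 2.37 and 1.61 CPM at 12000 fibers, and 1.18, 1.41, 1.77 and 2.34 CPM at 30000 fibers. As for Muc5b, mice 1 and 4 were the highest controls, and no fiber library reached the lowest control. The change was -2.54 ± 0.22 at 12000 fibers (log2, SE, edgeR adjusted p = 7.72e-08) and -2.76 ± 0.30 at 30000 fibers (adjusted p = 1.10e-07). Unlike Muc5b, reads of Muc5ac were present in all 8 fiber libraries, at 17% of the control level at 12000 fibers (12.9 to 22%) and 14.5% at 30000 fibers (8.79 to 22.7%).

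Agr2, the folding factor, had the lowest fitted log2 change of all 13759 genes at 12000 fibers and ranked 12 from the lowest at 30000 fibers, on 3 reads and 1 read from 1 mouse. It had 22.8, 12.3, 7.56 and 14 CPM in controls of mice 1 to 4, 0.269, 0, 0 and 0 CPM at 12000 fibers, and 0.392, 0, 0 and 0 CPM at 30000 fibers. All reads with fibers came from mouse 1, whose control library was also the highest. They were 3 reads at 12000 fibers and 1 read at 30000, against 519 in controls. In ratio of summed counts this left 0.633% of the control level at 12000 fibers (exact Poisson interval 0.13 to 1.86%) and 0.597% at 30000 fibers (0.0151 to 3.34%), the wider interval going with the shallower libraries. The fitted log2 changes were -7.04 ± 0.59 (edgeR adjusted p = 5.70e-07) and -7.10 ± 0.82 (adjusted p = 2.56e-06). These depend on the few reads of mouse 1, and leaving out its 12000-fiber library gave -9.51 at 12000 fibers, and leaving out its 30000-fiber library gave -9.67 at 30000 fibers.

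Spdef, the goblet cell transcription factor, passed the test at neither fiber number. Its 2.2, 1.85, 1.69 and 2.12 CPM in controls of mice 1 to 4 stood beside 1.97, 1.6, 1.12 and 0.804 CPM at 12000 fibers and 0.784, 0.353, 1.18 and 2.34 CPM at 30000 fibers. Mouse 4 had the lowest value at 12000 fibers and the highest of all 12 libraries at 30000 fibers. The change was -0.47 ± 0.31 at 12000 fibers (log2, SE, edgeR adjusted p = 0.261) and -0.72 ± 0.43 at 30000 fibers (adjusted p = 0.148). With 72 reads in controls, 48 at 12000 and 14 at 30000 fibers, counting error alone allowed 49.6 to 107% of the control level at 12000 fibers and 31.4 to 108% at 30000. Leaving out the 30000-fiber library of mouse 4 gave -1.29 (edgeR adjusted p = 0.0324), which passed, so that library decides the call.

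Muc4, a membrane-bound mucin and a ligand of the receptor ErbB2, fell at both fiber numbers. It had 1620, 831, 996 and 1150 CPM in controls of mice 1 to 4, 204, 173, 229 and 244 CPM at 12000 fibers, and 431, 241, 447 and 379 CPM at 30000 fibers. Each fiber library stood far below its mouse's control, and within each of the 4 mice the 30000-fiber value exceeded the 12000-fiber value. Relative to control the change was -2.44 ± 0.25 at 12000 fibers (log2, SE, edgeR adjusted p = 4.07e-05) and -1.62 ± 0.25 at 30000 fibers (adjusted p = 2.03e-04). At 30000 fibers this lay within the error of Muc16, and without the library of mouse 3 Muc16 was lower (-1.92) than Muc4 (-1.72).

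Muc16, which has the longest transcript of the set, spread widely between mice. Its levels were 106, 63.1, 80.1 and 92 CPM in controls of mice 1 to 4, 22, 15.9, 42.9 and 34.2 CPM at 12000 fibers, and 22.3, 9.52, 56.8 and 35.4 CPM at 30000 fibers. Mouse 3 was the highest and mouse 2 the lowest at both fiber numbers, and the highest fiber value, 56.8 CPM, lay just under the lowest control, 63.1 CPM. It fell by 1.59 ± 0.39 on the log2 scale at 12000 fibers (SE, edgeR adjusted p = 0.0103) and by 1.42 ± 0.44 at 30000 fibers (adjusted p = 0.0169). The call at 30000 fibers was lost with all listed transcripts as separate rows (-1.08, edgeR adjusted p = 0.0601).

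Muc1, a signaling mucin found on most epithelia and per kilobase the highest of the set, had the smallest fitted change at both fiber numbers. It had 720, 652, 680 and 728 CPM in controls of mice 1 to 4, 625, 666, 542 and 579 CPM at 12000 fibers, and 648, 476, 532 and 591 CPM at 30000 fibers. At 12000 fibers mouse 2 lay above its own control, while at 30000 fibers the highest library, 648 CPM, was just under the lowest control, 652 CPM. The change of -0.20 ± 0.08 at 12000 fibers did not pass (log2, SE, edgeR adjusted p = 0.0648), and it did when mouse was a term of the fit (-0.20, adjusted p of 0.0445) or when these groups were fitted alone (-0.19, adjusted p of 0.0429). It also passed without the 12000-fiber library of mouse 2 (-0.25, adjusted p = 0.0381), and without the 30000-fiber library of mouse 1 (adjusted p = 0.0488) or of mouse 2 (adjusted p = 0.0386). At 30000 fibers Muc1 fell by 0.31 ± 0.09 on the log2 scale (adjusted p = 0.00384). That call was lost when all listed transcripts were scaled as separate rows (0.03, adjusted p = 0.75), a scaling under which the median of all genes stood at 0.31.

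**Figure D2:**
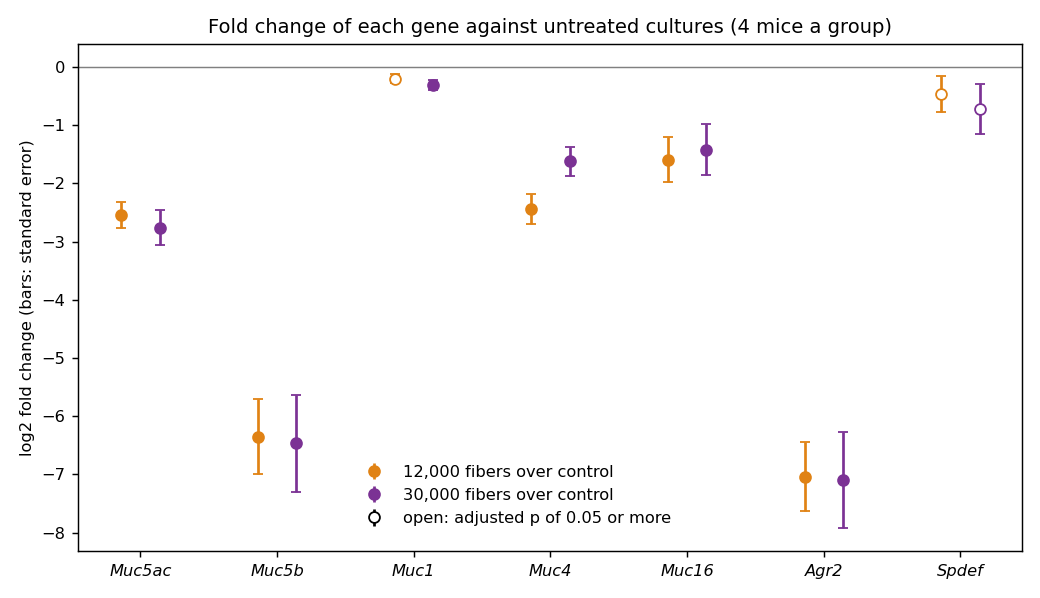
Log2 fold change over control (vertical axis) of the 7 genes at 12000 fibers (orange) and 30000 fibers (purple), with the standard error as bars and open symbols where the adjusted p was 0.05 or more. Agr2 and Muc5b lie between -7.10 and -6.35, Muc5ac, Muc4 and Muc16 between -2.76 and -1.42, and Muc1 and Spdef between -0.72 and -0.20.

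The comparison of 30000 with 12000 fibers asked whether more fibers moved the genes further. Muc4 alone of the 7 passed, and it was higher at 30000 fibers (log2 0.82 ± 0.25, SE, edgeR adjusted p = 0.017), higher in 4 of 4 mice, though the groups overlapped at 241 CPM in mouse 2 at 30000 fibers. In this comparison 55.4% of all genes were called, 28.3% higher and 27.1% lower. None of the 7 was without overlap, as were 26.7% of all genes on the higher and 25.6% on the lower side. With library totals unscaled, the median of all genes stood at -0.22, Muc4 no longer passed (0.61, adjusted p = 0.0523) and Muc1 was called lower instead (-0.31, adjusted p = 0.00499). The other 6 changes were -0.22 ± 0.39 for Muc5ac, -0.10 ± 0.09 for Muc1, 0.17 ± 0.48 for Muc16 and -0.26 ± 0.46 for Spdef (SE), and, with so few reads on either side that no fold can be read, -0.13 ± 1.9 for Muc5b and -0.06 ± 2.17 for Agr2.

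The gel-forming mucins were also set against the membrane-bound ones, a contrast carried mostly by Muc5b. The mean log2 CPM of Muc5ac and Muc5b minus that of Muc1, Muc4 and Muc16 was -4.03, -4.14, -4.45 and -3.40 in controls of mice 1 to 4, -6.27, -6.78, -8.73 and -7.58 at 12000 fibers, and -7.32, -7.61, -7.41 and -6.87 at 30000 fibers. Every fiber library lay below every control, and both fiber groups covered a common range. The group means differed from control by -3.33 at 12000 fibers (pooled SD 0.82) and -3.29 at 30000 fibers (pooled SD 0.38), given with no test since the genes were chosen together. With Muc5ac as the only gel-forming mucin, a choice made after seeing the data, they were -1.05 and -1.44, and with Muc5b as the only one -5.61 and -5.15. At 12000 fibers the fitted change of Muc5ac alone (-2.54 ± 0.22) was within its error of that of Muc4 (-2.44 ± 0.25). At 12000 fibers mouse 3 is lowest because Muc5b was listed at 0 there, and without that library the difference was -2.87.

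As shares of the summed counts of the 5 mucins, the gel-forming pair held 3.58% ± 1.47 in controls (2.4 to 5.7%), 0.31% ± 0.0785 at 12000 fibers (0.234 to 0.42%) and 0.24% ± 0.0694 at 30000 fibers (0.178 to 0.331%, SD, n = 4). Each control mouse stood several fold above its fiber libraries, and mouse 4 had the highest control share. Among the membrane-bound mucins the balance also moved. Muc4 held 56.6% ± 5.10 of the counts in controls, 25.1% ± 3.94 at 12000 fibers and 38.2% ± 4.10 at 30000 fibers, while Muc1 held 35.5% ± 5.37, 71.2% ± 5.28 and 58.5% ± 5.80 in the same order. Muc16 held 4.26% ± 0.219, 3.41% ± 1.51 and 3.08% ± 1.84. In each control library Muc4 had more counts than Muc1, and in each fiber library fewer. Per kilobase, where long mucins weigh less, Muc1 made up 74.1% ± 4.69 of the 5 in controls, 92.9% ± 1.53 at 12000 fibers and 88% ± 2.38 at 30000 fibers.

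**Figure D3:**
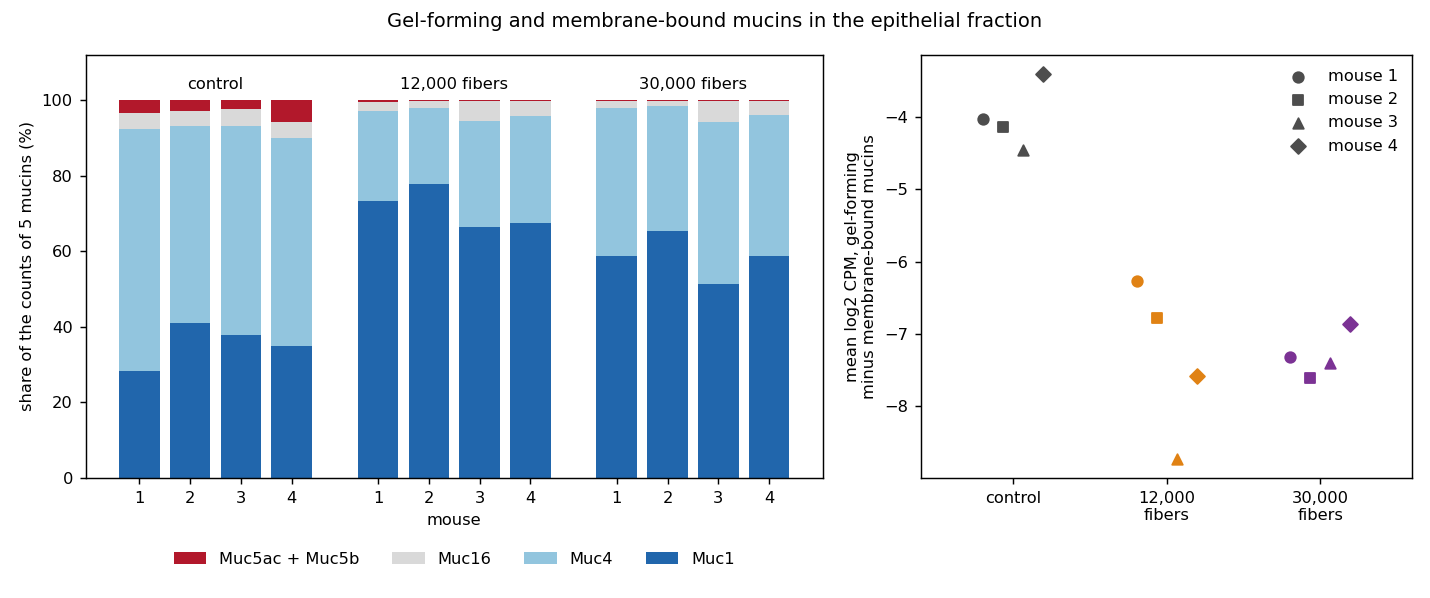
Left, share of the summed counts of 5 mucins held by each membrane-bound mucin and by Muc5ac and Muc5b together (vertical axis, percent) in each library, by mouse. Right, mean log2 CPM of the gel-forming minus the membrane-bound mucins per library; controls lie from -4.45 to -3.40 and all fiber libraries from -8.73 to -6.27.

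The listed transcripts of a gene can show whether a change runs along the whole gene. All transcripts here were fitted as separate rows, under which the median of all genes at 30000 fibers stood at 0.31, and the sources used here do not say how reads shared by transcripts were counted. Of 71081 transcripts listed before the filter on low counts, 9967 were called higher and 9965 lower at 12000 fibers than in controls. At 30000 fibers 20411 were called higher and 22452 lower than in controls. The shares among transcripts that passed the filter are larger and are not given here. At 12000 fibers all 3 transcripts of Muc5ac (-2.54 to -2.32), all 8 of Muc4 (-2.95 to -2.34), all 4 of Muc16 (-1.59 to -1.10), both of Agr2 (-7.03 and -6.51) and 2 of 3 of Muc1 were lower (edgeR). At 30000 fibers the transcripts of Muc4 spread out, from -1.26 ± 0.27 (SE) for Muc4-204, a short transcript at the 5′ end, to -3.20 ± 0.45 for Muc4-208, a retained intron near the 3′ end. Muc4-208 had 9 reads at 30000 fibers, against 329 in controls, and lies where Muc4 overlaps the gene Muc20. Full-length Muc4-201 and Muc4-206 lay with the 5′ transcript at -1.28 ± 0.25 and -1.31 ± 0.26, and Muc4-205, which starts inside the gene and runs to its end, lay at -2.04 ± 0.22. Of the 8, the 3 that reach the 5′ end (201, 204 and 206) were called higher at 30000 than at 12000 fibers, and the other 5 were not. In that comparison 19377 of all listed transcripts were called higher and 19719 lower. The difference between transcripts of Muc4 was not tested.

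In Muc16 the transcript at the 3′ end stood highest at 30000 fibers, though differences between its transcripts were not tested. Muc16-201, a 1035-base transcript at the 3′ end, was at 0.01 ± 0.32 at 30000 fibers (log2, SE, edgeR adjusted p = 0.978), and Muc16-202, a 1099-base transcript far from it, fell by 1.85 ± 0.52 (adjusted p = 0.00514). They rested on 67 and 14 reads there, in that order. At 12000 fibers both had fallen, by 1.56 ± 0.30 and 1.10 ± 0.32. Full-length Muc16-204 stood at -1.08 at 30000 fibers in this fit (adjusted p = 0.0601) and did not pass. Muc16-203, of 7700 bases and also running to near the 3′ end, was lower (-1.02 ± 0.39, edgeR adjusted p = 0.0412). In Muc4 the order at 30000 fibers was the reverse. Muc4-202 (-2.07 ± 0.20) and Muc4-207 (-2.29 ± 0.33), near the 3′ end, lay below Muc4-204 at the 5′ end (-1.26 ± 0.27). The 30000-fiber libraries carried the 3′ shift of 0.365 to 0.457 given above, and its part in the values of either gene was not tested. By length, Muc5ac, Muc5b, Muc4 and Muc16 belong to the longest of 5 equal classes of genes tested, whose median change at 30000 fibers was -0.23, Muc1 and Spdef to a class at 0.07, and Agr2 to the shortest class at 0.53.

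**Figure D4:**
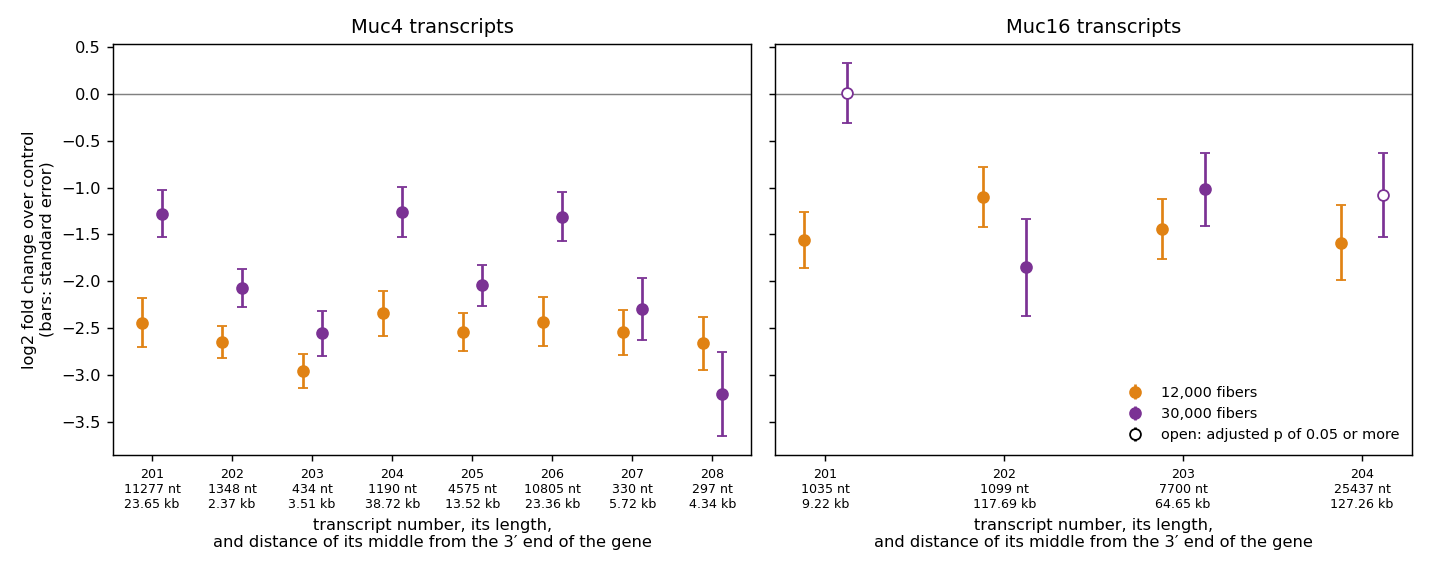
Log2 fold change over control (vertical axis, bars are standard errors) of each listed transcript of Muc4 and Muc16 at 12000 fibers (orange) and 30000 fibers (purple), labeled with its length and the distance of its exon center from the 3′ end of the gene. At 12000 fibers the Muc4 transcripts lie within -2.95 to -2.34, and at 30000 fibers they spread over -3.20 to -1.26, while Muc16-201 sits at 0.01. The -3.20 belongs to Muc4-208, which had 9 reads at 30000 fibers and lies in the overlap with Muc20.

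The counts of the lists that follow stand beside 19.3% lower and 18.7% higher over all genes at 12000 fibers, and 33.4% lower and 32.2% higher at 30000 fibers. No list was tested against them, since the lists were chosen with earlier results of these data known. Listed genes near the floor with fibers, such as Gp2, Lypd2 and Dapl1, passed the filter on low counts through their control libraries. Other mucins came first. Of 6 with counts, 1 fell and 1 rose at 12000 fibers (median log2 change -0.16), and 2 fell and 3 rose at 30000 fibers (median 0.44). Muc20, a small membrane mucin, fell in both, with 8.56 ± 0.727 CPM at 12000 fibers against 38.6 ± 10.5 in control (log2 -2.18 ± 0.19, SE), and 7.29 ± 2.42 CPM at 30000 fibers (-2.37 ± 0.23). Its gene (chromosome 16, 32777419 to 32797435, minus strand) overlaps the end of Muc4 by 4.97 kb on the other strand, and Muc4-203 and Muc4-208 lie wholly in the overlap. No source used here gives the strand setting of the counting, so reads there could belong to either gene. Muc19, another gel-forming mucin, was near the floor in controls (0.694 ± 0.186 CPM) and at 12000 fibers (0.619 ± 0.309), and higher at 30000 fibers (3.46 ± 1.85 CPM, log2 2.28 ± 0.41 over control). Mcam, an adhesion glycoprotein, was higher at 12000 fibers (0.38 ± 0.11) and lower at 30000 fibers (-0.37 ± 0.12), a call lost with transcripts as separate rows (-0.03, edgeR adjusted p = 0.817), where the median of all genes stood at 0.31.

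Products that mucous and other airway secretory cells release beside mucins were mostly lower. Of 10 tested, 8 fell and 1 rose at 12000 fibers, with a median log2 change of -3.92 against 0 over all genes. At 30000 fibers 8 fell and none rose, with a median of -4.51 against -0.03. Gp2 and Clca3a2, among the 8, passed the filter on low counts through their control libraries and could enter the test only as lower. Bpifa1, an antimicrobial surfactant protein of airway fluid, averaged 19.9 ± 8.83 CPM at 12000 fibers against 840 ± 336 in control (log2 -5.37 ± 0.51, SE) and 24.5 ± 19.6 CPM at 30000 fibers (-5.14 ± 0.55). Ltf, the iron-binding lactoferrin, averaged 51.4 ± 18.6 CPM at 12000 fibers against 1020 ± 328 in control (-4.31 ± 0.38) and 22.8 ± 12.1 CPM at 30000 fibers (-5.46 ± 0.44). Fcgbp, a mucus protein that binds to the mucin gel, fell by 2.61 ± 0.34 at 12000 fibers and by 3.97 ± 0.55 at 30000 fibers. Clca3a2, of the calcium-activated chloride channel regulator family, fell by 3.52 ± 0.49 at 12000 fibers, and 2 reads were left at 30000 fibers. The one that rose at 12000 fibers was Sytl2, a granule tethering protein (0.51 ± 0.10), which stood at 0.06 ± 0.12 at 30000 fibers and did not pass.

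The transcription factors named with goblet cells split. Of 13 tested, 7 fell and 2 rose at 12000 fibers (median -0.50), and 7 fell and 1 rose at 30000 fibers (median -0.66). Elf3, an ETS factor of epithelia, fell by 1.69 ± 0.12 at 12000 fibers and by 2.47 ± 0.14 at 30000 fibers. Sox2, which keeps the identity of airway progenitors, had log2 changes of -2.38 ± 0.20 and -2.88 ± 0.25 in the same order, and Ehf, another ETS factor of epithelia, of -0.95 ± 0.14 and -1.89 ± 0.15. Creb3l1, a membrane-bound factor of secretory cells that fibroblasts also use for collagen secretion, rose by 0.73 ± 0.12 at 12000 fibers and by 1.26 ± 0.12 at 30000 fibers. The fibroblast gene Col1a1 rose by 0.84 ± 0.23 and by 1.59 ± 0.24. The part of fibroblasts in the Creb3l1 values was not tested.

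General folding factors belong to the endoplasmic reticulum, the compartment of Agr2. Of 15 tested, 5 fell and 3 rose at 12000 fibers with a median of -0.05, and 5 fell and 7 rose at 30000 fibers with a median of 0.08, the lower count there being near the 33.4% of all genes. Pdia6, another disulfide isomerase, fell by 0.28 ± 0.07 at 12000 fibers, and Sdf2l1, a partner of the chaperone BiP, had a log2 change of -1.56 ± 0.16 at 30000 fibers. Kdelr3, a receptor that returns proteins to the endoplasmic reticulum, rose by 0.48 ± 0.13 and 1.40 ± 0.14, and Manf, a stress-induced secreted factor, stood at -0.09 ± 0.07 at 12000 fibers, which did not pass, and rose by 0.80 ± 0.08 at 30000 fibers.

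A list named for mucin O-glycosylation came next, and it also holds genes of other glycans, such as B3gnt5, Fut8 and St6gal1. Of 29 tested, 14 fell and 5 rose at 12000 fibers (median -0.28), and 17 fell and 6 rose at 30000 fibers (median -0.53), where all genes were 33.4% lower and 32.2% higher; the difference from all genes was not tested. Galnt5 and Galnt6, which start O-glycans, were among the deepest. Both passed the filter on low counts through their control libraries and could enter the test only as lower. Galnt5 averaged 0.123 ± 0.111 CPM at 12000 fibers against 9.43 ± 3.33 in control (log2 -6.10 ± 0.48, SE), and at 30000 fibers it had 0 counts in 4 of 4 libraries, at least 37.7-fold lower than control with a floor of 3 counts over the group. Galnt6 averaged 0.599 ± 0.266 CPM at 12000 fibers against 4.63 ± 0.262 in control (-2.85 ± 0.29), and 1 read at 30000 fibers against 169 in controls put it 54.6-fold lower (exact Poisson interval 9.66 to 2170). B3gnt3, which extends core 1 chains, fell by 1.08 ± 0.07 at 12000 fibers and by 1.91 ± 0.09 at 30000 fibers, and Galnt18, of the same family as Galnt5, had log2 changes of -1.45 ± 0.13 and -1.39 ± 0.15. B3gnt5, which starts lactoseries glycolipid chains, rose by 1.40 ± 0.13 at 12000 fibers and by 0.74 ± 0.16 at 30000 fibers.

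Of 21 genes of the granule release machinery, 2 were lower and 6 higher at 12000 fibers (median 0.02), and 10 were lower and 6 higher at 30000 fibers (median -0.33). Rab3d, a GTPase on secretory granules, fell by 0.69 ± 0.10 at 12000 fibers and by 1.35 ± 0.12 at 30000 fibers. Unc13d, which primes granules for baseline mucin release, was higher at 12000 fibers (0.64 ± 0.10), lower than control at 30000 fibers (-0.81 ± 0.12, edgeR adjusted p = 8.46e-06) and lower at 30000 than at 12000 fibers (-1.45 ± 0.12).

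Of 23 receptors, ligands and other genes linked to mucous cells, 13 fell and 1 rose at 12000 fibers (median -0.34). At 30000 fibers 17 fell and 4 rose (median -0.58). The 4 were Egfr (log2 0.45 ± 0.11, SE), Areg (0.61 ± 0.15), Hes1 (0.58 ± 0.09) and the scarce Slc26a4 (1.5 ± 0.51). Slc26a4 was also the 1 that rose at 12000 fibers (1.59 ± 0.41). Jag2, a ligand of Notch receptors, averaged 22.3 ± 3.72 CPM at 12000 fibers and 7.26 ± 1.40 CPM at 30000 fibers, against 111 ± 24.2 in control (log2 -2.32 ± 0.15 and -3.91 ± 0.21, SE). Notch1 fell by 1.16 ± 0.08 at 12000 fibers and by 1.88 ± 0.10 at 30000 fibers. Il13ra1, a chain of the interleukin 13 receptor, fell by 0.99 ± 0.11 at 12000 fibers, and Il4ra, its partner chain, by 1.10 ± 0.07 at 30000 fibers. Erbb2, the receptor that Muc4 binds, fell by 0.74 ± 0.08 and by 1.33 ± 0.09 at the lower and the higher fiber number.

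Genes of the fluid under the gel were mixed at 12000 fibers, with 6 of 13 lower and 4 higher (median -0.26), and at 30000 fibers 8 were lower and 2 higher (median -0.42). The water channel Aqp3 had log2 changes of -4.04 ± 0.35 at 12000 fibers and -4.87 ± 0.48 at 30000 fibers, and Aqp5, also a marker of alveolar type 1 cells, of -1.30 ± 0.10 and -1.73 ± 0.11. Slc12a2, the chloride importer of secreting cells, was at -0.67 ± 0.10 and -1.47 ± 0.10, and Ano1, the calcium-gated chloride channel, rose by 0.42 ± 0.07 at 12000 fibers and did not pass at 30000 fibers (-0.11 ± 0.07). Of 14 partners of membrane-bound mucins, 2 fell and 4 rose at 12000 fibers (median 0), and 10 fell and 2 rose at 30000 fibers (median -0.41). Msln, the ligand of Muc16, averaged 751 ± 65.1 CPM at 12000 fibers against 1110 ± 105 in control (log2 -0.56 ± 0.12) and 463 ± 96.1 CPM at 30000 fibers (-1.26 ± 0.12). Lgals3, a galectin that cross-links surface mucins, rose by 0.35 ± 0.07 at 12000 fibers and by 0.88 ± 0.07 at 30000 fibers.

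**Figure D5:**
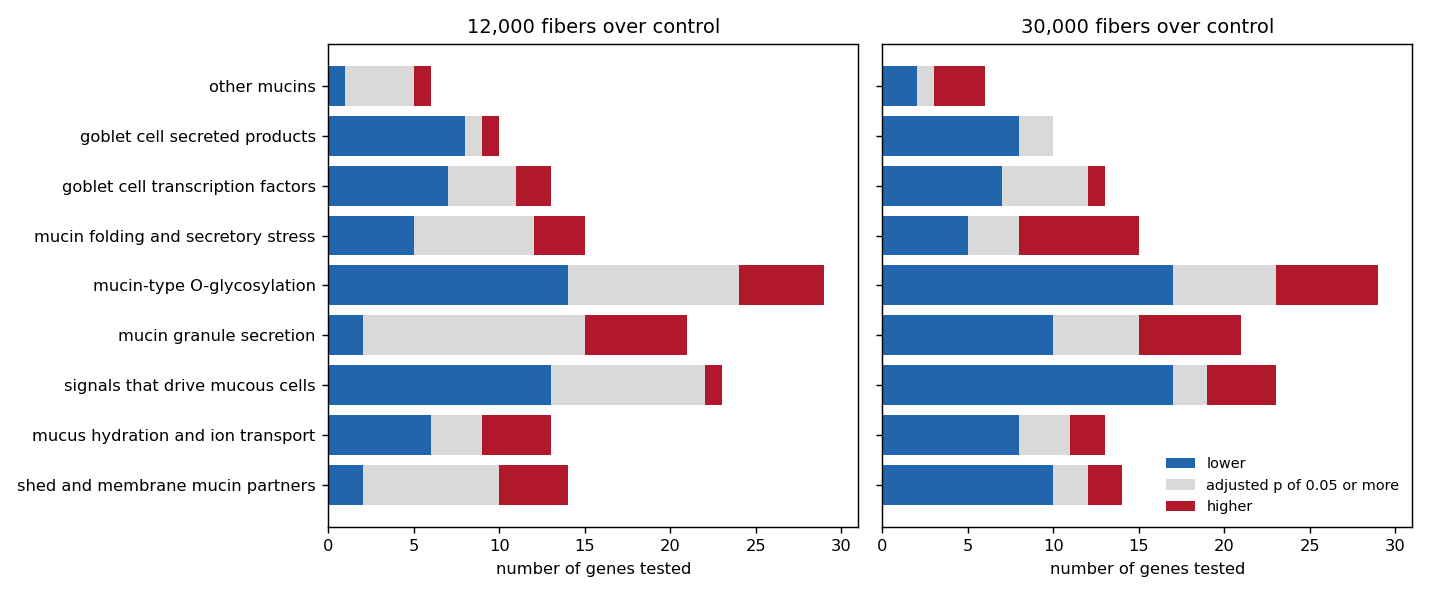
Number of genes tested (horizontal axis) in each of 9 mucus-related lists that were lower (blue), higher (red) or had an adjusted p of 0.05 or more (gray) at 12000 fibers (left) and 30000 fibers (right) relative to control. Secreted products show the highest share lower, 8 of 10 at both fiber numbers. Of the folding genes, 5 of 15 were lower and 7 of 15 higher at 30000 fibers. Over all genes tested, 33.4% were lower and 32.2% higher there.

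Markers of several epithelial cell types moved beside the members. Summed over 9 listed genes, club and secretory cell markers stood between 1480 and 2960 CPM in controls, between 305 and 406 at 12000 fibers, and between 429 and 629 at 30000 fibers, and 8 of 9 were lower at each fiber number. Scgb1a1, the best known club cell product, had a change of 0.79 ± 0.33 at 12000 fibers that did not pass (edgeR adjusted p = 0.09). It was higher at 30000 fibers, with 210 ± 25 CPM against 11.5 ± 5.10 in control (log2 4.15 ± 0.30, SE). Basal cell markers, 7 of 7 lower at both fiber numbers, summed to between 1160 and 2120 CPM in controls, between 91.1 and 203 at 12000 fibers, and between 47.3 and 82.1 at 30000 fibers. Ciliated cell markers were lower in 8 of 8 at 12000 fibers and 6 of 8 at 30000 fibers. Alveolar type 2 markers summed to between 1540 and 3520 CPM in controls, between 3250 and 5830 at 12000 fibers, and between 4090 and 6070 at 30000 fibers, with 1 of 8 higher and none lower at 12000 fibers and 5 higher and 1 lower at 30000 fibers. Alveolar type 1 markers summed to between 1100 and 1400 CPM in controls, between 627 and 752 at 12000 fibers, and between 462 and 565 at 30000 fibers. Of the 5, 3 and then 2 were lower, the latter near the 33.4% of all genes. Aqp5 was the largest term of these sums, with 870 ± 153, 353 ± 8.5 and 262 ± 30.9 CPM in that order. Ager (0.40 ± 0.22 and -0.53 ± 0.23) and Hopx (-0.17 ± 0.13 and -0.31 ± 0.15) passed at neither fiber number. The part of these cell types in the mucin results was not tested.

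The genes whose levels most resembled each member over the 12 libraries were found by Pearson r of log2 CPM, given as a description since the groups themselves set most of it. Muc5ac was most like Fut8 (0.984), Muc20 (0.981) and Fgfbp1 (0.977), Muc5b like Slc45a3 (0.976), Lypd6b (0.971) and Galnt18 (0.964). Agr2 went with the club cell cytochrome Cyp2f2 (0.988), Bpifa1 (0.986) and Eya1 (0.976). Muc4 was most like Cldn23 (0.988), Wdr72 (0.987) and the uroplakin gene Upk1b (0.983), which also was higher at 30000 than at 12000 fibers (log2 0.99 ± 0.29, SE, edgeR adjusted p = 0.0117). Muc16 was closest to Sorbs2 (0.965), Sclt1 (0.957) and Tns4 (0.954), and Muc1 to Me1 (0.95), Ift52 (0.943) and B4galt4 (0.939). Spdef had the weakest likenesses, to Mapk13 (0.94), Rundc1 (0.87) and Slc22a15 (0.856).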

How the data were processed

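RNA was sequenced in 24 libraries, and the 12 of the epithelial fraction were used here. Libraries were made from 300 ng RNA with stochastic barcodes on the mates, per the labels' protocols. Per the submitters' processing notes, bcl2fastq, FastQC, cutadapt 1.12 and HISAT2 2.1.0 were used with build mm10; no source used here names the counting program, its strand setting or the use of barcodes. The values the authors deposited were raw counts per transcript, not normalized or pooled, with a lowest total of 60 over the table.

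The members and lists were chosen with earlier results of these data known. The 12 libraries of 3 groups were fitted together with edgeR 4.0.16 (R 4.3.3) on the transcript of highest mean for each gene (filterByExpr by group, TMM scaling, robust quasi-likelihood test, Benjamini-Hochberg adjustment over 13759 genes of 14557, threshold 0.05). CPM (counts scaled to 1e+06 per library) use TMM-scaled totals, log2 CPM add a prior count of 0.5, and error bars after a log2 change are standard errors. All 7 members, up to 4 genes per list by smallest p among those that passed, and the 3 genes most alike each member were open to being named. Alternatives were other scalings, DESeq2 1.42.0, no filter, the mouse as a block, other transcript choices, 2 groups alone and leaving out each library. The labels give 4 independent isolations from 4 mice, so equal mouse numbers pair the libraries; the correlations of same-mouse deviations ran from -0.021 to 0.139 over 12 pairs. Annotation was GENCODE M21 (GRCm38), in which 70518 of 71081 listed transcripts were found. Figures were drawn with matplotlib. Fibroblast libraries were not used.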

Additional observations from a re-analysis of the deposited data

Results flagged for a closer look

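Agr2 at 12000 fibers had 0.269 CPM in mouse 1 and 0 in the other 3 mice, so the gap of mouse 1 to the nearest library was 1 times the range of the group, above Dixon's limit. At 30000 fibers Agr2 had 0.392 CPM in mouse 1 and 0 in the other 3 mice, a gap again 1 times the range. These values rest on 3 reads and on 1 read. With 3 libraries at 0, any read in the remaining library gives a gap of 1 times the range, so both flags say no more than the reads do. In all, 2 of 24 groups tested passed the limit. The usual chance rate of about 1 in 20 is no guide for groups with such 0 counts.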

How the results depend on the processing

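Relative to control, the falls of Muc5ac, Muc5b, Muc4 and Agr2 at both fiber numbers, and of Muc16 at 12000 fibers, kept their direction and passed in all 21 alternatives. Muc16 at 30000 fibers (-1.08, adjusted p = 0.0601) and Muc1 at 30000 fibers (0.03) did not pass with all listed transcripts as separate rows, where Pdia6 at 30000 fibers also turned to 0. In that fit the median of all genes at 30000 fibers was 0.31, and 19932, 42863 and 39096 transcripts were called for 12000 fibers over control, 30000 over control and 30000 over 12000, more rows being tested, with 2 members called in the last. Without scaling factors the median of all genes was -0.25 at 30000 fibers over control, and 3237 genes were higher and 6363 lower (4434 and 4592 with scaling); for 30000 over 12000 fibers 2765 were higher and 5649 lower (3893 and 3728). Sign turns in the 30000 over 12000 comparison were in changes that had not passed: Muc16 at -0.04 without scaling, Muc5b at 0.02 and Agr2 at 0.23 under DESeq2, Muc5ac at 0 and Muc5b at 0.03 with summed transcripts, and with separate rows Muc5ac at 0.12, Muc5b at 0.21, Muc1 at 0.24 (adjusted p = 0.0175), Agr2 at 0.22 and Spdef at 0.08. Leaving out 1 library moved that comparison from -0.47 to 1.06 for Muc5b, -0.33 to 0.46 for Muc16, -2.62 to 2.42 for Agr2 and -0.83 to 0.03 for Spdef. The gel-forming minus membrane-bound difference at 12000 fibers (-3.33) was -2.91 with a prior count of 2, -2.73 without Muc1, -3.82 without Muc4 and -3.69 to -2.87 with 1 library left out; at 30000 fibers (-3.29) it was -2.67 with a prior count of 2, -2.85 without Muc1 and -3.44 to -3.09 with 1 library left out. Without Muc5b, added after seeing the data, it was -1.05 and -1.44, and without Muc5ac -5.61 and -5.15, at 12000 and 30000 fibers. With the mouse as a replicate block, Agr2 at 30000 over 12000 fibers was 0.1, and Muc1 at 12000 fibers passed (-0.20, adjusted p = 0.0445); the block changed no other call among the 7 genes. The cause of these shifts was not tested, and the 1 to 25 reads left for Agr2 and Muc5b limit their fold changes.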
